A study of Mus musculus with 12 samples.

Results

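Nnat, Rasgrf1 and Ube3a are protein-coding genes of the mouse that are imprinted, and their RNA was examined here for m6A (N6-methyladenosine), a methylated base of mRNA that an antibody can recover together with the fragment around it. The samples were hippocampi of wild-type C57BL/6 males, 2 libraries from mice aged 2 weeks and 2 from mice aged 6 weeks. No treatment or altered allele is given for either age. Each library paired an m6A immunoprecipitate (IP) of fragmented poly(A)+ RNA with a control, and the submitters deposited a list of enriched peaks per library. The labels call the libraries biological replicates 1 and 2 without naming the animals or saying whether tissue was pooled. The other 8 samples of the series, among them the Fto knockout, were not analysed here.

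The members were the peaks that overlapped 3 windows of the mm9 build: chromosome 2 from 157385000 to 157388700 for Nnat, chromosome 9 from 89800000 to 89925000 for Rasgrf1, and chromosome 7 from 66483500 to 66567500 for Ube3a. They numbered 185 of the 148097 peaks in the 4 lists. Merging peaks that shared at least 1 bp across lists gave 81 member regions of 70674 in all: 3 in Nnat, 46 in Rasgrf1 and 32 in Ube3a. The members were thus chosen by measured values, since each had been called as a peak at 3-fold or more over control, and their enrichment above this minimum is a description.

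Imprinted genes are transcribed mainly from the copy inherited from a given parent. Nnat encodes neuronatin, a small membrane protein of the endoplasmic reticulum that is made from the paternal copy and is abundant in developing brain. Rasgrf1 encodes a calcium-responsive exchange factor that activates Ras and is known for its part in hippocampal plasticity. Its imprinting favours the paternal copy, and whether it did so at both ages examined here was not tested. Ube3a encodes a ubiquitin ligase whose paternal copy is silenced in neurons together with transcription of a long antisense RNA, and whose maternal loss causes Angelman syndrome. In the RefSeq gene table of GRCm38.p6, which was used for gene names and gene order only, Ube3a overlapped Snhg14, the host of that antisense RNA, and Nnat overlapped Blcap. The library kit named in the labels does not mark strand, so tags of these overlapping pairs cannot be told apart. The sequences under the peaks are not shown, since no mm9 genome was used here. Exons, introns and UTRs were not assigned, because no annotation of the mm9 build was used here, and for the same reason the tissue was not checked against marker genes.

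The scaling of the values puts the IP depth between 16.1 and 23.4 M tags (M, 1000000), greater at 2 than at 6 weeks, and the control depth between 11.7 and 29.3 M. A tag is a sequenced read placed on the genome, and values below are tags per 10 M in a 100 bp peak. Control tags, called input in the tests, measure the RNA present under a peak, and IP tags the part of it pulled down. Where a library had several peaks in a region, their mean is given. In bulk tissue, fewer cells of a type and less RNA per cell cannot be told apart. Each list held tags only where a peak was called, so a missing value is a missing call and not a level of 0.

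Of the Nnat regions 0 of 3 were called in all 4 libraries, of Rasgrf1 8 of 46 and of Ube3a 3 of 32, where the share over all regions was 14.4%. A single library accounted for 1, 21 and 20 regions, against 58.6% of all regions. The regions called in both libraries of a single age were 1 at 2 weeks, in Nnat (6.41% of all regions), and 2 at 6 weeks, in Rasgrf1 and Ube3a (1.92% of all regions). Rasgrf1 had 20 and 28 peaks at 2 weeks and 27 and 41 at 6 weeks. Ube3a had 8 and 11 peaks at 2 weeks and 16 and 27 at 6 weeks. Per 10000 peaks of a list the Rasgrf1 values were 5.09 and 7.16, then 8.12 and 11.2, and the Ube3a values 2.04 and 2.81, then 4.81 and 7.40. Per 10000 peaks each 6-week list was thus above each 2-week list in both genes, and how often this held for other genes was not tested. As plain counts the Rasgrf1 ages overlapped, with 28 peaks in 2-week replicate 2 and 27 in 6-week replicate 1. Of the single-library regions, 11 in Rasgrf1 and 14 in Ube3a came from 6-week replicate 2, the source of 27.0% of all single-library regions.

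At 2 weeks Nnat carried the most abundant RNA of the 3 genes under an m6A peak. The Nnat peaks called at 6 weeks lay at positions other than that of the abundant 2-week peak. Their highest control values, 2.53 and 26.5 tags per 10 M, were below those of Rasgrf1 (52.6 and 48.7) and Ube3a (24.1 and 34.2). These values give no 6-week level for the abundant 2-week region. In the region on chromosome 2 from 157387670 to 157387771 the control held 408 tags per 10 M in 2-week replicate 1 and 427 in replicate 2. The IP held 1295 and 1353. These control levels ranked 37 and 52 among all peaks of their lists, while the authors' fold over control, 3.17 in both libraries, ranked 37719 and 37913. Both 2-week libraries were alike there, with replicate 1 at 0.957 times replicate 2 in the IP and 0.955 times in the control. Neither 6-week list had a peak in this region, and the nearest 6-week peaks lay 1137 and 1096 bp away. A fold of 3.17 is just above the minimum of 3 in the lists, so the missing 6-week call gives no value for the 6-week level of either fraction.

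The middle Nnat region, from 157386430 to 157386621, was called in every library but 2-week replicate 1. Its control tags were 31.5 per 10 M in 2-week replicate 2, 1.90 and 2.53 in the 2 peaks of 6-week replicate 1, and 8.54 in 6-week replicate 2. Its IP tags were 111 in the 2-week library, 13.6 and 31.0 in 6-week replicate 1 and 49.7 in 6-week replicate 2. The 2-week library was thus highest in both fractions, and its fold of 3.53 was the lowest, beside 7.18 and 12.24 and then 5.82. The 2 peaks of 6-week replicate 1 started 3 bp apart yet held 22 and 50 IP tags. In the 4 lists 6242 of 148097 peaks, 10 of them members, shared start and end with another peak of the same list, and 5906 of these differed from it in IP tags; the cause was not tested. The remaining region, from 157385875 to 157385975, was called in 6-week replicate 2 alone, with 111 IP and 26.5 control tags per 10 M. With 1 library against 2, no test of age was made for Nnat.

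**Figure D1:**
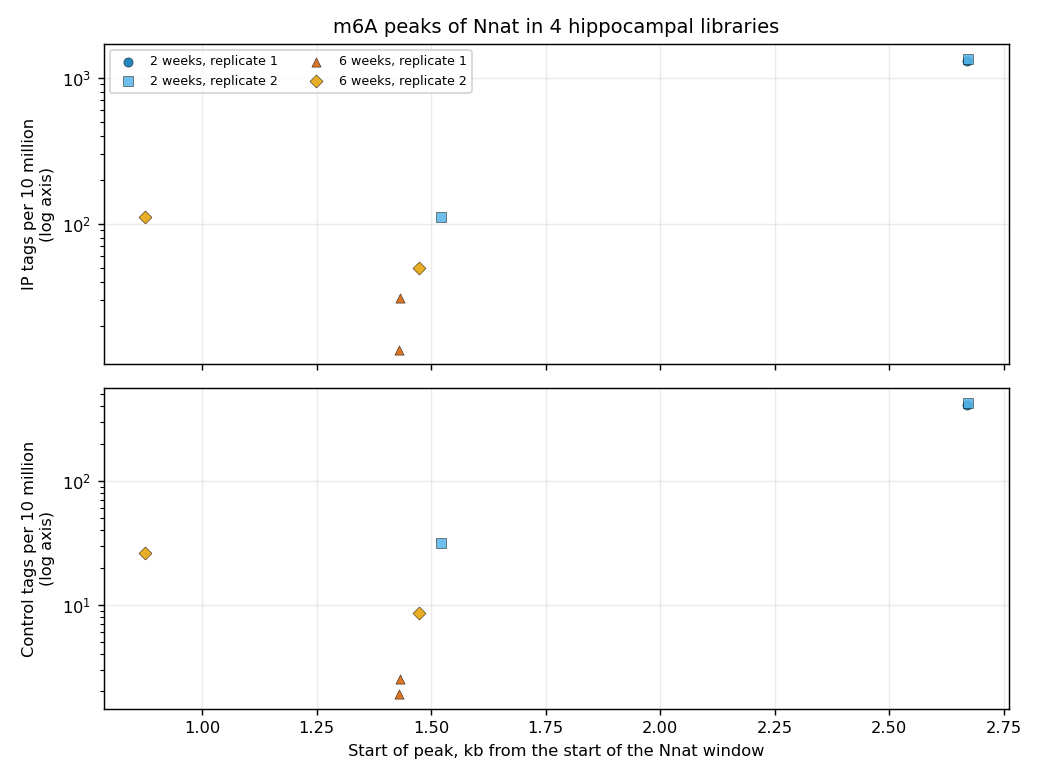
Each point is an Nnat peak, placed by the distance of its start from the start of the window in kb. The upper panel gives IP and the lower panel control tags per 10 M on log axes, and colours and symbols mark the 4 libraries. The pair of 2-week peaks at 2.67 kb stands at 1295 and 1353 IP tags per 10 M, and the 6-week peaks lie between 13.6 and 111.

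Just outside the Nnat window, the nearest peaks lay 2.43 to 2.47 kb before it and held 244 and 163 IP tags per 10 M at 2 weeks and 83.7 and 84.2 at 6 weeks. Their control tags were 44.3 and 47.5, then 15.2 and 16.2. Both 6-week libraries were below both 2-week libraries in each fraction of these peaks, as they were in the control of 47.9% and the IP of 42.1% of all regions called in every library. On the far side the nearest peak was 174 kb away. The nearest peaks outside the other windows were 24.3 kb or more from Rasgrf1 and 2.61 kb or more from Ube3a.

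The peaks of Rasgrf1 lay mostly in 2 stretches. Splitting the regions wherever 10 kb or more separated them left 9 regions in a first stretch, from 89804565 to 89811273 (4.57 to 11.3 kb into the window), and 34 in a second, from 89836643 to 89869225 (36.6 to 69.2 kb). The other 3 regions were isolated calls of 6-week replicate 2. Of the 8 regions called in every library, 1 was in the first stretch and 7 were in the second, between 54.3 and 61.6 kb.

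In the second stretch 2-week replicate 1 stood apart from the other 3 libraries. Its peaks there held a median of 11.9 IP tags per 10 M, where 2-week replicate 2 held 67.9 and the 6-week libraries 62.6 and 52.7. Its median control level was 1.36, against 14.9, 16.5 and 11.1. The highest IP value of 2-week replicate 1 in the stretch was 15.4, while the other libraries reached 182, 208 and 170. It also had fewer peaks, 14 against 25, 22 and 33, and it lacked a call in 4 of the regions that the other 3 libraries shared.

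In the first stretch the same library was not far below the others. Its peaks there had a median of 37.1 IP tags per 10 M, between the 35.1 of 6-week replicate 2 and the 47.5 and 71.9 of 2-week replicate 2 and 6-week replicate 1. At the region called in every library, from 89810030 to 89810167, the IP values were 97.7 and 131 at 2 weeks and 149 and 99.3 at 6 weeks. The control values there were 22.9 and 24.95, then 31.4 and 32.4, so that 2-week replicate 1 was the lowest in both fractions. The ratio of 2-week replicate 1 to replicate 2 was thus 0.748 in IP and 0.916 in control. At the other region of this stretch called in both 2-week libraries, from 89810506 to 89810607, it was 0.881 in IP and 2.73 in control.

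In the second stretch the regions called in both 2-week libraries started between 54.3 and 61.5 kb into the window. The ratio of replicate 1 to replicate 2 at 2 weeks was lower at the first of these regions than at the last. At the region from 89854255 to 89854689 it was 0.0611 in IP and 0.0820 in control. Across the lists the peaks of this region started up to 334 bp apart, and those from 89856079 to 89856491 up to 312 bp apart. Values at these regions thus partly compare different stretches of RNA between libraries. At the next region called in every library, from 89854898 to 89855059, the ratio was 0.0658 and 0.0442. From 89857199 to 89857304 it was 0.113 and 0.0696. At the last pair of such regions, from 89861163 to 89861320 and from 89861454 to 89861639, it was 0.395 and 0.451 in IP, and 0.287 and 0.197 in control. The 6-week replicates had IP ratios of 0.866 to 1.24 at the 7 regions of this stretch, and control ratios of 0.525 to 2.06.

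**Figure D2:**
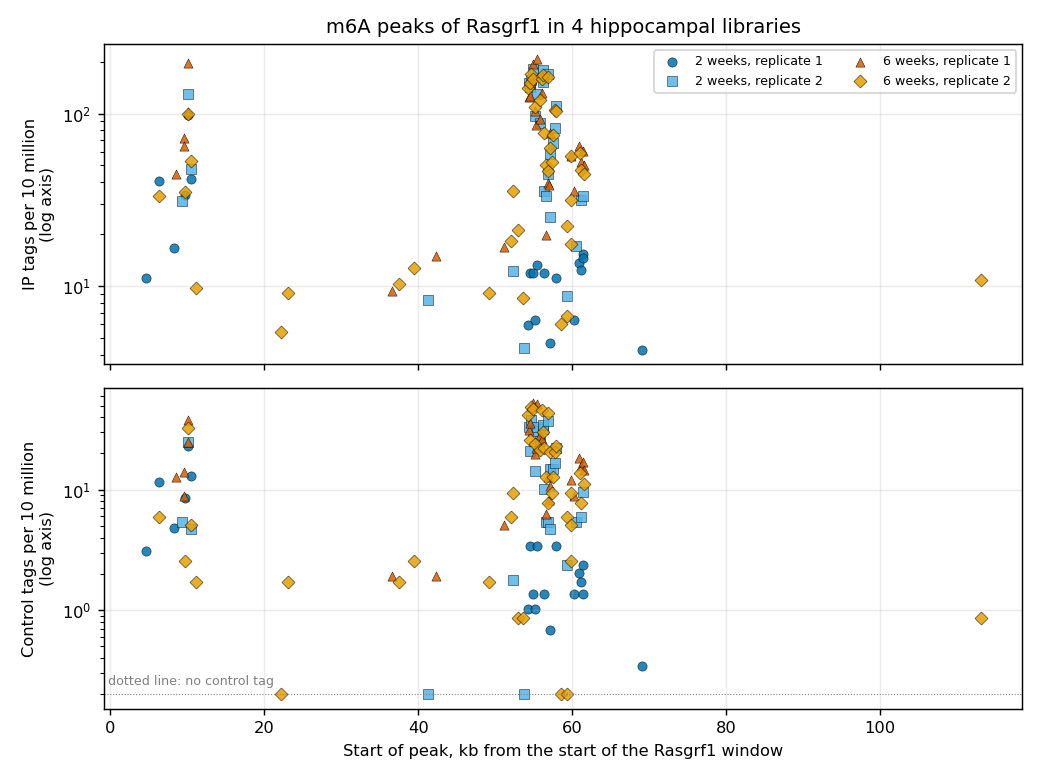
Each point is a Rasgrf1 peak, placed by the distance of its start from the start of the window in kb, with IP tags per 10 M above and control tags below, on log axes. Colours and symbols mark the 4 libraries and the dotted line marks peaks with no control tag. Between 54 and 62 kb the points of 2-week replicate 1 lie at 15.4 IP tags or fewer, under nearly all points of the other libraries.

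**Figure D3:**
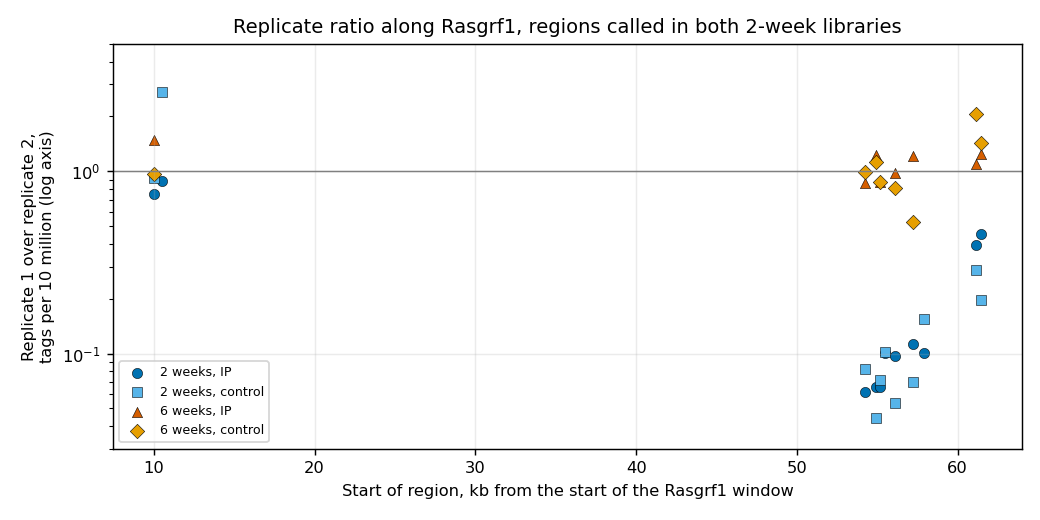
Points give replicate 1 over replicate 2, in tags per 10 M on a log axis, at the Rasgrf1 regions called in both 2-week libraries, for IP and control at each age where both libraries had a call. The horizontal line marks a ratio of 1. At 10 kb the 2-week ratios are 0.748 and 0.881 in IP and 0.916 and 2.73 in control. Those of both fractions lie between 0.0442 and 0.155 from 54 to 58 kb, and between 0.197 and 0.451 near 61 kb, while the 6-week ratios stay between 0.525 and 2.06.

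Few other regions showed this. Among the 10203 regions called in every library, 7 (0.0686%) had 2-week replicate 1 at least 4-fold below each of the other libraries in both IP and control, a rule chosen after the values were seen. Of these 7, 5 were in Rasgrf1, and they share a gene and are not independent. Another, on chromosome 7 from 66453152 to 66453338, lay 30.2 kb before the Ube3a window. There 2-week replicate 1 held 6.40 IP tags per 10 M and the other libraries 157, 168 and 57.5, with control tags of 0.682 against 13.1, 7.60 and 5.98. The last was on chromosome 6 from 124867826 to 124867966. The same rule found 6 regions (0.0588%) for 2-week replicate 2, 4 (0.0392%) for 6-week replicate 1 and 22 (0.216%) for 6-week replicate 2, with no member among them. Whether anything in the tissue, the animals or the library preparation moved with these low values was not tested. Over all 10203 regions the log2 ratio of the 2-week replicates in IP had a median of -0.12, with 5th and 95th percentiles of -0.96 and 0.72. It was under -2 in 17 regions, 5 of them in Rasgrf1.

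In the second stretch IP and control of 2-week replicate 1 were low together, and its fold over control at the peaks called there was not low. In the first stretch its median fold was 3.55, the lowest, beside 5.78 in 2-week replicate 2 and 5.14 and 5.68 in the 6-week libraries. Peaks entered the lists only at 3-fold or more, so these medians describe called peaks. In the second stretch the authors' fold had a median of 6.46 in that library, 4.97 in 2-week replicate 2, and 3.79 and 5.14 in the 6-week libraries. At the region from 89854898 to 89855059 the folds were 8.76 and 5.88 at 2 weeks and 3.68 and 3.37 at 6 weeks. Of the 8 regions called in every library, the ratio of IP to control was lower in both 6-week than in both 2-week libraries in 2 and higher in 0, where 10.5% and 18.4% of all such regions were.

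The other regions called in every library had the same low library. From 89854255 to 89854689 the IP tags per 10 M were 8.96 and 147 at 2 weeks and 126 and 145 at 6 weeks, and the control tags 2.22 and 27.0, then 33.6 and 33.7. From 89855136 to 89855374 the IP tags were 6.40 and 97.1, then 94.9 and 109, and the control tags 1.02 and 14.3, then 20.9 and 23.9. In both, 2-week replicate 1 was far below the other 3 libraries, and 2-week replicate 2 was above the lower of the 6-week libraries in IP. From 89856079 to 89856491 the IP tags were 11.9 and 123, then 131 and 134. From 89857199 to 89857304 they were 4.69 and 41.6, then 76.9 and 63.0, and the control tags 0.682 and 9.80, then 10.8 and 20.5. The distance between the 2-week libraries was smaller in the last pair, where from 89861454 to 89861639 the IP tags were 14.9 and 33.1, then 55.5 and 44.8, and the control tags 1.88 and 9.51, then 15.8 and 11.1.

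The 4 regions of the second stretch that 2-week replicate 1 alone lacked were not all weak. The region that starts at 89854700 held 156 IP tags per 10 M in 2-week replicate 2 and 151 and 170 at 6 weeks. The region that starts at 89855817 held 88.0, then 93.0 and 121. Over the whole genome 7.76% of the regions that the other 3 libraries shared had no call in 2-week replicate 1. At the region from 89854898 to 89855059 the values of 2-week replicate 1 rested on 28 IP and 4 control tags, where the other libraries had 261 to 417 IP and 52 to 83 control tags.

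Control tags of Rasgrf1 lay higher at 6 weeks, and most of the distance came from 2-week replicate 1. In all 8 regions called in every library both 6-week controls lay above both 2-week controls, which held in 6.74% of such regions overall. The 8 regions share a gene, and in 7 of them 2-week replicate 1 was the low library described above. Compared with 2-week replicate 2 alone, which was also below both 6-week controls in each of the 8, the distance was smaller: at 89856079 to 89856491 its 25.5 control tags stood beside 26.6 and 32.7, and at 89854898 to 89855059 its 30.9 stood beside 52.6 and 47.0. In IP both 6-week libraries were above both 2-week libraries in 4 of 8 regions, against 6.82% overall. Summed over the 8 regions, control tags per 10 M were 33.1 and 148 at 2 weeks and 207 and 209 at 6 weeks. The IP sums were 169 and 785, then 878 and 801. The log2 change of the control sum was 1.57, and 0.49 without 2-week replicate 1; for IP it was 1.20, and 0.10 without that library. The exact two-sided permutation p was 0.33 for each, the smallest that 2 libraries against 2 allow.

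A test per region was possible where each list had exactly 1 peak, in 4577 regions of the genome, of which 4 were members: 2 in Rasgrf1 and 2 in Ube3a. From 89861163 to 89861320 the control tags per 10 M were 1.71 and 5.94 at 2 weeks and 15.8 and 7.68 at 6 weeks, and the IP tags 12.4 and 31.4, then 52.1 and 47.2, so that both 6-week libraries were above both 2-week libraries. Input tags of both Rasgrf1 regions were called higher at 6 weeks, where edgeR called 1.20% of regions higher and 1.07% lower. The log2 change was 2.33 ± 0.44 (SE) from 89854898 to 89855059 (edgeR adjusted p = 0.000198) and 2.31 ± 0.56 from 89861163 to 89861320 (edgeR adjusted p = 0.00866). Leaving out 2-week replicate 1 brought the input changes of this pair to 1.29 and 1.59. Dropping 2-week replicate 2 instead brought the pair to 5.55 and 3.18. The sizes became 2.36 and 1.77 when 6-week replicate 1 was dropped, and 2.34 and 2.64 when 6-week replicate 2 was. Each of these fits had 1 library at an age. Such fits cannot decide whether the calls depend on the library left out, so only sizes are given. In a fit of all 10203 regions called in every list neither Rasgrf1 region passed (edgeR adjusted p = 0.0803 and 0.0806). DESeq2 did not call the first (adjusted p = 0.592) and gave no adjusted p for the second. edgeR draws each region's spread towards that of all regions: for the first region its own quasi-dispersion, the spread between replicates relative to the model, was 15.7 and the value used in the test was 1.14. The 2-week control values of 1.36 and 30.9 at this region lay further apart than the higher of them lay from the 6-week values, so the call does not measure the difference against the spread of these replicates. IP tags did not pass the threshold, with log2 changes of 1.35 ± 0.66 and 1.64 ± 0.45 (edgeR adjusted p = 0.298 and 0.0766). The IP change of the first was 4.23 without 2-week replicate 2, 1.51 without 6-week replicate 1 and 1.17 without 6-week replicate 2. That of the second was 2.37, 1.87 and 1.39 in the same fits. Without 2-week replicate 1 the changes were 0.45 and 1.17.

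A region called at 6 weeks only, from 89859814 to 89859978, held 57.0 and 35.3 IP tags and 12.0 and 5.69 control tags per 10 M, with 2-week peaks 287 and 307 bp away. The 21 Rasgrf1 regions called in a single library were low, with 4.27 to 52.7 IP tags per 10 M and a median of 11.1. Of these, 11 came from 6-week replicate 2, against 27.0% of all single-library regions. The 45 peaks in regions called everywhere had a median of 86.2.

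In Ube3a the regions called in every library, 3 in number, lay within the first kb: from 66483462 to 66483570, which began 38 bp before the window, from 66483684 to 66483839, and from 66484101 to 66484217. In 3 of the libraries the highest IP value of the window was there, and in 2-week replicate 1 it was at 48.4 kb (55.04 IP tags per 10 M, beside 52.1 at most in the first kb). Beyond a gap of over 10 kb, 26 regions between 26.7 and 81.9 kb included 18 called in a single library, and 14 of those came from 6-week replicate 2, the source of 27.0% of all single-library regions.

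The last of the 3 regions in the first kb, from 66484101 to 66484217, was the highest at both ages. Its IP tags per 10 M were 52.1 and 74.0 at 2 weeks and 301 and 122 at 6 weeks. Its control tags were 8.87 and 15.4, then 24.1 and 34.2. Both 6-week libraries stood above both 2-week libraries in each fraction, as in 6.74% of all regions called in every list in control and 6.82% in IP. Input rose by a log2 of 1.83 ± 0.43 (SE; edgeR adjusted p = 0.00641), and IP rose by 2.08 ± 0.39 (edgeR adjusted p = 0.0250), where edgeR called 0.852% of regions higher and 0.240% lower in IP. Over all regions called in every list, IP of 6-week replicate 1 was above replicate 2 by a median log2 of 0.64, and the gap of 2.47 times here was within the 5th to 95th percentile of -0.58 to 1.90 on the log2 scale. DESeq2 called both (adjusted p = 0.0321 and 0.000426). With total tags in place of TMM scaling, which moved the median log2 change of all regions to -0.53 in input and -0.37 in IP, the changes were 1.28 and 1.74 and neither passed (edgeR adjusted p = 0.0535 and 0.177). In the fit of all 10203 regions called in every list the input change did not pass (edgeR adjusted p = 0.0634) and the IP change did (0.0299). Without 2-week replicate 1 or 2 the input change was 1.52 or 2.14 and the IP change 1.91 or 2.27, none past the threshold, in edgeR fits that called 0 regions of the genome in input (269 or 357 at an unadjusted p under 0.05) and 6 or 4 in IP.

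The 2 other regions of the first kb differed less. From 66483462 to 66483570 the control tags were 5.46 and 6.54 at 2 weeks and 5.07 and 4.27 at 6 weeks, so that both 6-week libraries were below both 2-week libraries, as in 47.9% of all such regions. The IP tags were 35.8 and 63.6, then 94.3 and 38.8, and the ages overlapped in this fraction. The fitted input change was 0.18 ± 0.61, and -0.32 with total tags, and the IP change was 0.77 ± 0.41 (edgeR adjusted p = 0.925 and 0.348); without 6-week replicate 2 the IP change was 1.05 (edgeR adjusted p = 0.0316). From 66483684 to 66483839, where 6-week replicate 1 had 2 peaks, the control tags were 3.75 and 4.16, then 6.02 and 4.27, and the IP tags 19.6 and 21.8, then 43.1 and 29.1. Both 6-week libraries were above both 2-week libraries in control (6.74% of all such regions) and IP (6.82%) there. Across the 3 regions the IP sums were 108 and 159 at 2 weeks and 438 and 190 at 6 weeks, and the control sums 18.1 and 26.1, then 35.2 and 42.7 (exact two-sided permutation p = 0.33 for each).

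**Figure D4:**
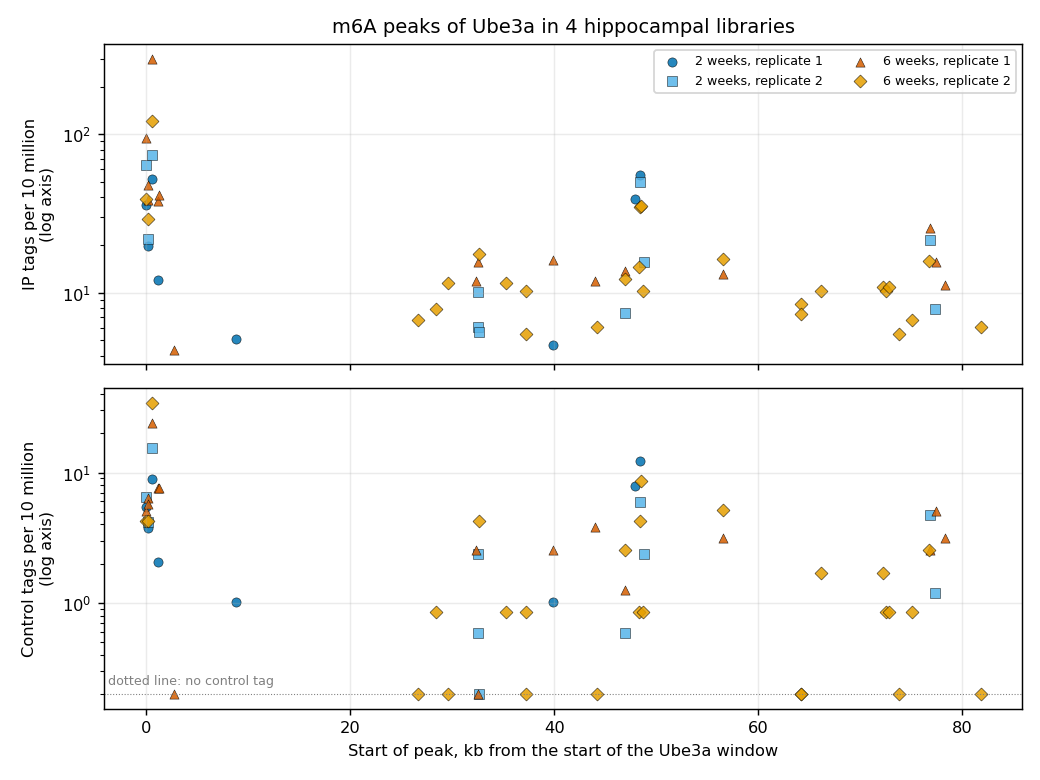
Each point is a Ube3a peak, placed by the distance of its start from the start of the window in kb, with IP tags per 10 M above and control tags below, on log axes. Colours and symbols mark the 4 libraries and the dotted line marks peaks with no control tag. The points above 60 IP tags per 10 M lie in the first kb, up to 301 in 6-week replicate 1.

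Ube3a peaks of 6-week replicate 2 often rested on few control tags. In 6-week replicate 2, 20 of 27 peaks (74.1%) had at most 3 control tags, against 48.4% of all peaks in that list, and 8 had none. In the other lists it was 2 of 8 and 4 of 11 at 2 weeks and 3 of 16 in 6-week replicate 1, each below the share of its whole list (31.5%, 45.3% and 29.7%). The highest region away from the window start, from 66531842 to 66532078, held 55.04 and 50.1 IP tags per 10 M at 2 weeks and 28.1 in 6-week replicate 2, with no call in 6-week replicate 1. A region called at 6 weeks only, from 66540018 to 66540123, held 13.02 and 16.4 IP and 3.17 and 5.12 control tags per 10 M. The 2-week peaks nearest to it were 7976 and 7645 bp away.

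m6A enrichment, the ratio of IP to control, did not pass a test of age at any of the 4 member regions, nor at any of the 4577 (0 higher and 0 lower, called 0% each; 129 at an unadjusted p under 0.05 in edgeR, 28 in DESeq2). In Rasgrf1 the log2 change was -0.97 ± 0.47 (SE) from 89854898 to 89855059 and -0.65 ± 0.59 from 89861163 to 89861320. In Ube3a it was 0.68 ± 0.62 from 66483462 to 66483570 and 0.25 ± 0.47 from 66484101 to 66484217 (edgeR adjusted p = 0.999 for all 4). Missing the threshold does not show that enrichment was equal at the ages. Each region tested had been called at 3-fold or more over control in all 4 lists. A region whose enrichment fell below that at an age could not enter, so the 0 calls do not cover such regions. Without 6-week replicate 1 the last Ube3a value was -0.43 and the second Rasgrf1 value 0.20. The ratio of summed IP to control tags was 5.11 and 5.30 at 2 weeks and 4.23 and 3.83 at 6 weeks in Rasgrf1. In Ube3a it was 5.95 and 6.10, then 12.5 and 4.44, and the 6-week libraries lay on both sides of the 2-week ones. The high Ube3a value came from 6-week replicate 1, whose folds were 18.6 and 12.5 at the outer pair of regions, beside 9.08 and 3.56 in 6-week replicate 2.

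**Figure D5:**
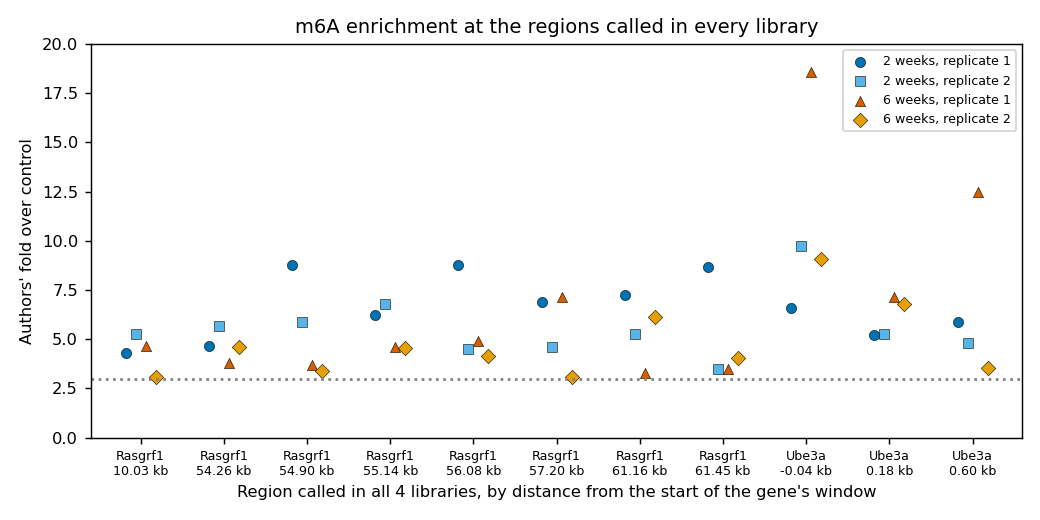
For each of the 11 regions called in all 4 libraries, points give the authors' fold over control in each library (the mean over its peaks in the region), and regions are placed in order along each gene with the distance from the window start in kb. The dotted line is the minimum of 3 in the lists. The 8 Rasgrf1 regions lie between 3.06 and 8.76, and 6-week replicate 1 reaches 18.6 and 12.5 in Ube3a.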

How the data were processed

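The deposited lists carry the column names of HOMER's peak caller. Build mm9, HOMER, Cufflinks 2.2.1, TopHat2 (2.0.13 and 2.1.1) and Bowtie2 2.2.3 stand in the submitters' processing notes, without roles. Which input library served as control, and with what caller options, is not given in the sources used here. Per the file headers, the normalized tag signal is scaled by library, IP tags are whole counts in 2-week replicate 1 and scaled elsewhere, and control tags are scaled in that list and unscaled, expected counts elsewhere, with 0.5 standing for none. The authors' deposited fold ratio was used as given; the deposited p-value, score and focus ratio (a fraction) were not used.

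Scaled columns were divided by the value of 1 tag. IP and control values came out whole within 0.2 tag in 100% of peaks (control values of 0.5 tag set to 0; IP values under 1000), and both scaled IP columns gave the same tags below 100 per 10 M. Depths assume HOMER's scaling to 10 M tags. Regions were merged at 1 bp or more. edgeR 4.0.16 (quasi-likelihood, TMM, Benjamini-Hochberg over 4577 regions, threshold 0.05) tested control tags and IP tags, each with a width offset, and their interaction with a sample term; SE is the log2 change over the root of F. DESeq2 1.42.0, R 4.3.3, Python 3.11.15 and pandas 2.3.3 were also used. The scripts were tested on simulated tags with less spread than the input and IP tags of these data, so that test does not bear on the calls here.

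Regions described singly were those called in all 4 lists (at most 8 per gene), those of a single age, and those past a threshold; others were picked after their values were seen. The genes, windows and lists were chosen with earlier results of these data known, and the Rasgrf1 region from 89854898 had been seen as an input change. Other imprinted genes and marker genes were not analysed here, for want of an mm9 annotation. The labels do not name the animals, so the spread between samples may be technical, and edgeR's p-values rest on a spread drawn towards that of all regions.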

Additional observations from a re-analysis of the deposited data

How the results depend on the processing

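With peaks at 8-fold or more over control, the Rasgrf1 and Ube3a regions called in every library, the Nnat region called at 2 weeks only and the Rasgrf1 and Ube3a regions called at 6 weeks only all numbered 0; fewer peaks enter by construction. Merging within 200 bp gave 4 Rasgrf1 regions called in every library (8 in the report) and 2 Ube3a regions at 6 weeks only (1), and merging at 50 bp or more gave 4 Rasgrf1 regions at 6 weeks only (1). Leaving out 1 library gave, for regions called in every remaining list, 0 to 1 in Nnat, 9 to 12 in Rasgrf1 and 3 to 6 in Ube3a. At 2 weeks only it gave 1 in Nnat each time, 1 to 3 in Rasgrf1 and 0 to 2 in Ube3a, and at 6 weeks only 0 to 1, 3 to 12 and 1 to 15, because an age left with 1 list is counted from that list alone; the values of 12 and 15 came without 6-week replicate 1.

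In input, 55 regions were called higher and 49 lower. Total tags in place of TMM gave 21 and 370. DESeq2 gave 22 and 13 (no adjusted p for 3106 regions). The calls were 28 and 21 when all 10203 regions called in every list were fitted, and 14 and 14 with starts within 20 bp. In the fit of 10203 regions 0 of the 11 members passed in input (1361 regions at an unadjusted p under 0.05), and the Rasgrf1 and Ube3a regions named in the report had adjusted p of 0.0634 to 0.0806 in edgeR. Without 1 library they ranged from 0 to 84 and from 0 to 72. IP calls (39 and 11) became 0 and 0 with total tags (736 at an unadjusted p under 0.05 in edgeR), 60 and 44 with DESeq2, 15 and 6 with at least 10 control tags, 62 and 23 over all regions called in every list, and 17 and 5 with starts within 20 bp. Without 1 library they ranged from 3 to 402 and from 1 to 325. Enrichment calls stayed at 0 except without 6-week replicate 2 (20 higher, 1 lower, no member). The causes were not tested.

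The labels give replicate numbers without saying that a number marks a shared litter or day, and deviations of same-numbered libraries correlated with r of 0.053 in input and 0.026 in IP. With a replicate block the input calls were 56 and 49, the enrichment calls 0 and 0, and the IP calls 112 and 78; 3 of 4 members were then called in IP, with log2 changes of 2.19 and 1.74 at the Rasgrf1 regions.

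Of the single values, the input change at Ube3a from 66483462 was -0.32 with total tags. Without 6-week replicate 1 the enrichment change was -0.43 at Ube3a from 66484101 (range -0.43 to 0.95 over the libraries left out) and 0.20 at Rasgrf1 from 89861163 (range -1.13 to 0.20), and the log2 change of the summed Ube3a ratio went from 0.30 to -0.44 (range -0.44 to 1.05 over the libraries left out). The log2 change of IP at the Rasgrf1 region from 89854898 was 4.23 without 2-week replicate 2, 1.51 without 6-week replicate 1 and 1.17 without 6-week replicate 2. Fewer tags in the 6-week libraries, and 4 or fewer control tags in 2-week replicate 1 at parts of Rasgrf1, limit the precision.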
